A study of Mus musculus with 18 samples.

Results

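The IgG Fc receptors of the mouse, Fcgr1, Fcgr2b, Fcgr3 and Fcgr4, were described on 18 single-dye microarrays of basophils and mast cells from C57Bl/6 mice. They were taken by gene symbol in the platform annotation, which gave 4 of 19084 genes and 6 of 26423 probes: 3 probes for Fcgr2b and 1 for each of the other genes. For each gene the probe with the highest mean over the 18 arrays stood for it.

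The arrays fell into 6 groups of 3. Treated floxed basophils (Cebpa f/f RosaYFP/creER) and treated wild type basophils (Cebpa +/+ RosaYFP/creER) had been cultured for 5 days with 20 ng/ml interleukin-3 and 100 nM 4-hydroxytamoxifen, the drug that activates a tamoxifen-inducible Cre recombinase. Untreated floxed and untreated wild type basophils had the same genotypes and the same culture without the drug, so all 4 cultured groups carried RosaYFP/creER. Fresh basophils came from the bone marrow of mice injected 3 days earlier with interleukin-3 bound to an antibody against it, and mast cells from bone marrow kept in interleukin-3 (20 ng/ml) for 4 weeks. The labels give the fresh basophils and the mast cells no genotype beyond the strain, and they give no age, no promoter for the Cre recombinase, no statement on sorting for the reporter and no statement on pooling of mice. They do not say either whether the 3 samples of a group came from separate mice or cultures, so each p-value reflects the spread among these samples, and that spread may be technical.

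IgG Fc receptors bind the constant part of IgG antibodies and turn antibody on a target into a signal inside the cell. Fcgr1 (CD64, high affinity), Fcgr3 (CD16, low affinity) and Fcgr4 (CD16-2) are activating receptors that need the Fc receptor gamma chain, encoded by Fcer1g, for their signalling. Fcgr2b (CD32B) is the inhibitory member, whose cytoplasmic motif recruits the phosphatase encoded by Inpp5d. On basophils and mast cells Fcgr2b and Fcgr3 are the best known members, with Fcgr2b acting as a brake on the IgE receptor. The extracellular parts of Fcgr2b and Fcgr3 are nearly identical, and the probe sequences were not used here, so cross-hybridization between their transcripts was not tested.

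The promoter windows of the 4 genes are shown because 3 of them were lower together in treated floxed basophils and because Cebpa, the floxed gene, encodes a factor that binds DNA. Each window holds 250 bases before the annotated start and 50 bases from it, taken from RefSeq (GRCm38.p6) and written in the direction of the gene. For Fcgr3 the table held overlapping windows, of which the first is shown. Capitals mark every match on either strand to TTGCNNAA (C/EBP), GAGGAA (PU.1), TTCNNNGAA (GAS, bound by STAT factors) or GAAA, any 2 bases and GAAA (ISRE, bound by interferon regulatory factors), and no matches overlapped.
Fcgr1 promoter, chr3:96293920-96294219, minus strand: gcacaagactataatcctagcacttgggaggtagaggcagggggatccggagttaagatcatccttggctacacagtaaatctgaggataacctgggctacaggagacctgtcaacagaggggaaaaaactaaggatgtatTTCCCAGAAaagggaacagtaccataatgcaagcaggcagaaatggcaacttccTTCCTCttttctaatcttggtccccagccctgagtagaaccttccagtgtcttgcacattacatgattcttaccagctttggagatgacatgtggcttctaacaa
Fcgr2b promoter, chr1:170976022-170976321, minus strand: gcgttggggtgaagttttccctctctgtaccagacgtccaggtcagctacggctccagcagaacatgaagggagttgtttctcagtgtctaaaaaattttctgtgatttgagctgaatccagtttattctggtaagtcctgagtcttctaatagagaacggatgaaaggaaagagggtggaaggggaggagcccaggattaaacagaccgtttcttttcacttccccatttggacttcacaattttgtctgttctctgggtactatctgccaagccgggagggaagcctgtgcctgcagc
Fcgr3 promoter, chr1:171059354-171059653, minus strand: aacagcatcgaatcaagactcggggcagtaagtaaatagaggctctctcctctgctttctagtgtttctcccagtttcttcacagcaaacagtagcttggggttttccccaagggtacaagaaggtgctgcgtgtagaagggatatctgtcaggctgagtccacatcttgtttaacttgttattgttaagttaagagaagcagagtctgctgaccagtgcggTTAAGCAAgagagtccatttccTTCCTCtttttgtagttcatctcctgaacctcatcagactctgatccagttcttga
Fcgr4 promoter, chr1:171018676-171018975, plus strand: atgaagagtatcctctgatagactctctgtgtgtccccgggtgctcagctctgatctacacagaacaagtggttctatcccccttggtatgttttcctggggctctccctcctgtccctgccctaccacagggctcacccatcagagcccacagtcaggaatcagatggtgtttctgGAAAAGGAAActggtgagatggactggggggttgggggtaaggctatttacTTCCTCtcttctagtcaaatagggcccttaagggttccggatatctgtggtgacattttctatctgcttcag

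The C/EBP letters were found in the Fcgr3 window, as TTAAGCAA starting 28 bases before the start. The PU.1 letters, read as TTCCTC, stood 6 bases before the start in Fcgr3, 22 before it in Fcgr4 and 55 before it in Fcgr1. Fcgr1 also held the GAS letters TTCCCAGAA 109 bases before its start, and Fcgr4 the ISRE letters GAAAAGGAAA 73 bases before its start. The Fcgr2b window held none of the 4 letter patterns. Of 27025 promoter windows of the same length, 10.8% held the C/EBP letters, 28.3% the PU.1 letters, 8.47% the GAS letters and 3.49% the ISRE letters. A match describes letters and no binding was measured here.

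Array quality and cell identity were checked first. The median intensity per array lay between 24 and 42, between 47.6% and 55.2% of probes exceeded an intensity of 30, and that value was used as the background limit: a probe under it on every array of a group was treated as at background there. The number of arrays limits the precision. Pearson's r across probes was 0.990 to 0.993 within groups, and no pair of arrays held identical values. Cebpa, the targeted gene, averaged 65.5 ± 6.60 in treated floxed, 983 ± 63.5 in untreated floxed, 2778 ± 220 in treated wild type and 2369 ± 203 in untreated wild type basophils (SD, n = 3 each), and without the drug it was lower in floxed than in wild type cells by −1.26 ± 0.10 on the log2 scale (SE). The position of its probe relative to the deleted part was not examined. Of 14 basophil markers with a probe, 14 were above the limit in each basophil group except treated floxed cells, where 13 were (Itga2 was at background), and 12 were above it in mast cells. This list is not exclusive to basophils: Gata2 is also in the mast cell list, and Fcer1a (mean 22979) and Ms4a2 (8280) were bright in mast cells too. Basophil markers summed to 203218 to 208336 in treated floxed and 259424 to 266199 in treated wild type basophils, against 73040 to 77383 in mast cells. Between those 2 basophil groups, 7 of 14 were lower and 3 higher in treated floxed cells. Of 14 mast cell markers with a probe, 12 were above the limit in each of the 4 cultured basophil groups and 9 in fresh basophils, against 13 in mast cells. Their summed intensity was 153834 to 161034 in treated floxed, 92353 to 92906 in untreated floxed, 105974 to 106913 in treated wild type, 99111 to 100901 in untreated wild type and 78073 to 80735 in fresh basophils, against 202155 to 207130 in mast cells.

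Fcgr2b, the inhibitory receptor, was bright in cultured basophils, dimmer in fresh basophils and dimmest in mast cells. All intensities given here are normalized over the 18 arrays. Fcgr2b read 3013, 2911 and 3390 in treated floxed, 4457, 3928 and 4190 in untreated floxed, 8848, 9205 and 9283 in treated wild type and 4897, 5132 and 5016 in untreated wild type basophils. It read 1596, 1611 and 1801 in fresh basophils and 736, 741 and 751 in mast cells. For this probe no neighbouring groups overlapped in the order treated wild type, untreated wild type, untreated floxed, treated floxed, fresh, mast cell. The other probes did not keep that order throughout. For the second probe treated floxed (mean 2026) and untreated floxed basophils (2014) overlapped. For the dimmest probe untreated floxed (170) and untreated wild type basophils (169) overlapped.

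Fcgr3, the low-affinity activating receptor, read 12037, 12973 and 11218 in treated floxed and 18905, 23921 and 22961 in untreated floxed basophils. Its intensity was 29182, 30114 and 30114 in treated wild type, 30114, 29182 and 31197 in untreated wild type and 24380, 26207 and 25870 in fresh basophils. In mast cells it was 10203, 10712 and 11480. Both wild type cultures overlapped at the top, fresh and untreated floxed basophils followed, and treated floxed basophils overlapped with mast cells at the bottom. Equal values on different arrays arise because quantile normalization gives probes of the same rank the same value.

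Fcgr4, an activating receptor best known from neutrophils, monocytes and macrophages, read 175, 196 and 169 in treated floxed and 266, 230 and 263 in untreated floxed basophils. It read 884, 895 and 922 in treated wild type, 1170, 1050 and 1068 in untreated wild type and 1941, 2115 and 1987 in fresh basophils, against 21.7, 14.4 and 20.3 in mast cells, which is at background. No neighbouring groups overlapped from fresh basophils through untreated wild type, treated wild type, untreated floxed and treated floxed basophils to mast cells.

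Fcgr1, the high-affinity receptor, was above the limit in fresh basophils alone of the 6 groups, at 86.7, 64.7 and 77.0. It averaged 0.963 ± 2.94 in treated floxed, 3.04 ± 2.03 in untreated floxed, 18.8 ± 6.33 in treated wild type and 14.9 ± 3.09 in untreated wild type basophils and 3.96 ± 0.378 in mast cells (SD, n = 3 each). Those 5 groups have no order above background, and no fold between them is given.

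**Figure D1:**
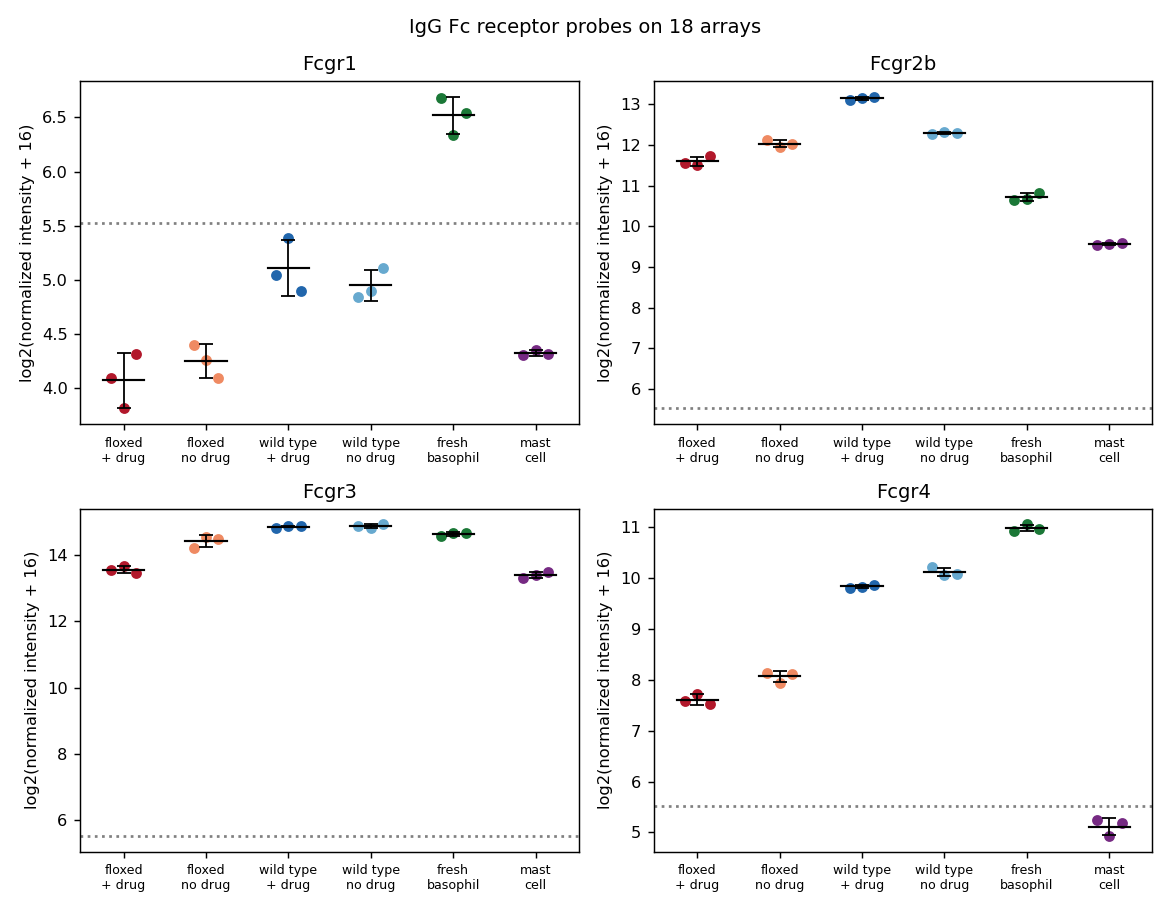
Normalized intensity (log scale) of Fcgr1, Fcgr2b, Fcgr3 and Fcgr4 on each of the 18 arrays, by group; points are arrays, black lines are means of 3 arrays, error bars are SD and the dotted line is the background limit of 30. Fcgr2b peaked in treated wild type basophils, with a mean of 9112, and Fcgr4 in fresh basophils, with a mean of 2015.

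In fresh basophils against mast cells, which asked what distinguishes these related cell types, the activating and inhibitory IgG Fc receptors were all higher in basophils. The labels describe an injection for the fresh basophils alone and a culture of 4 weeks for the mast cells alone. Cell type and preparation therefore cannot be told apart here. Fcgr4 was at least 67.1-fold higher (adjusted p = 8.88e-09) and Fcgr1 at least 2.52-fold higher (adjusted p = 1.45e-06); both are bounds because mast cells were at background. Fcgr3 was higher by 1.17 ± 0.095 on the log2 scale (SE, adjusted p = 2.54e-05), or 2.25-fold, and Fcgr2b by 1.14 ± 0.096 (adjusted p = 3.11e-05), or 2.20-fold. The other probes of Fcgr2b gave 0.42 ± 0.094 (adjusted p = 0.00835) and at least 1.72-fold (adjusted p = 0.00166). Thus 4 of 4 members were higher, where 25.9% of all probes above the limit in a group compared were higher and 31.7% lower, or 57.6% in either direction. Their shared signalling chain, Fcer1g, averaged 12088 ± 530 in fresh basophils and 10305 ± 259 in mast cells (SD, n = 3 each), a log2 difference of 0.23 ± 0.092 that did not pass (adjusted p = 0.0903).

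Markers of other myeloid cells moved with this comparison. Of 15 neutrophil markers with a probe, 14 were above the limit in fresh basophils and 10 in mast cells, and their summed intensity was 115970 to 121558 in fresh basophils against 6409 to 7791 in mast cells. The monocyte and macrophage markers summed to 35164 to 36905 with 14 of 14 above the limit in fresh basophils, against 20634 to 23042 with 8 of 14 in mast cells, where C1qa, C1qb, Csf1r, Mrc1, Cd14 and Timd4 were at background. The part of these cells in the Fcgr1 and Fcgr4 results was not tested, and in bulk samples fewer cells of a type and less RNA per cell cannot be told apart. Of the 9 B cell markers with a probe, 5 were above the limit in fresh basophils and 4 in mast cells, and they summed to 1729 to 1913 in fresh basophils against 554 to 590 in mast cells; 3 of the 5 were higher, while Ms4a1, Pax5, Ebf1 and Blk were at background in all 6 groups. Of the 9 NK cell markers, 3 were above the limit in fresh basophils and 1 in mast cells, with sums of 3859 to 4327 in fresh basophils against 108 to 124 in mast cells. Klrk1, Gzma and Nkg7 were the NK markers above it in fresh basophils, and Ncr1, Klrb1c, Prf1, Tbx21 and Klrd1 were at background in all 6 groups. Of the 8 dendritic cell markers, 3 (Itgax, Zbtb46 and Batf3) were above the limit in both groups, with sums of 482 to 489 in fresh basophils against 307 to 344 in mast cells; Cd209a, Siglech, Xcr1 and Clec9a were at background in all 6 groups. The part of B, NK and dendritic cells in the 4 receptor results was not tested.

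Treated floxed against treated wild type basophils asked how the loss of Cebpa changes basophils. Inhibitory Fcgr2b and activating Fcgr3 and Fcgr4 were all lower in the treated floxed group. The Fcgr4 gap was present without the drug too, at −2.03, and its interaction of −0.17 did not pass (adjusted p = 0.478). For Fcgr2b the drug effect was 0.86 in wild type and −0.44 in floxed cells, so its gap also holds the wild type rise. Fcgr4 was lower by 2.19 ± 0.090 on the log2 scale (SE, adjusted p = 4.41e-09), or 4.58-fold. Its mean was 180 ± 13.8 in treated floxed and 900.2 ± 19.4 in treated wild type basophils. Fcgr2b was lower by 1.56 ± 0.086 (adjusted p = 5.15e-08), or 2.95-fold, and its other probes by 1.33 ± 0.10 and 1.18 ± 0.092. Fcgr3 was lower by 1.36 ± 0.10 (adjusted p = 6.86e-07), or 2.57-fold. None of the 3 genes overlapped between the groups, and how common this was over all probes was not counted. Of the members above the limit 3 of 3 were lower, where 23.3% of probes above it were lower and 25% higher, or 48.3% in either direction.

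The gamma chain gene, Fcer1g, did not pass: it averaged 18328 ± 792 in treated floxed and 19104 ± 1290 in treated wild type basophils (SD, n = 3 each), a difference of −0.06 ± 0.086 on the log2 scale (adjusted p = 0.659). Fcgr1 lay below the limit in both groups, so its adjusted p of 2.62e-04 is given without a fold. Neutrophil markers summed to 18327 to 21137 in treated floxed, against 26024 to 27396 in treated wild type basophils, and 10 of 14 were lower and 4 higher, with a median log2 fold change of −1.82. Ngp and Elane were at background in the treated floxed and not in the treated wild type group, and S100a8 was at background in all 6 groups. Monocyte and macrophage markers summed to 13774 to 14046 in treated floxed and 17551 to 18188 in treated wild type basophils, and 11 of 13 were lower and 2 higher, with a median of −1.46. Mast cell markers had 9 of 12 higher and 1 lower (median 1.42). The part of such cells in the lower receptor values was not tested.

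**Figure D2:**
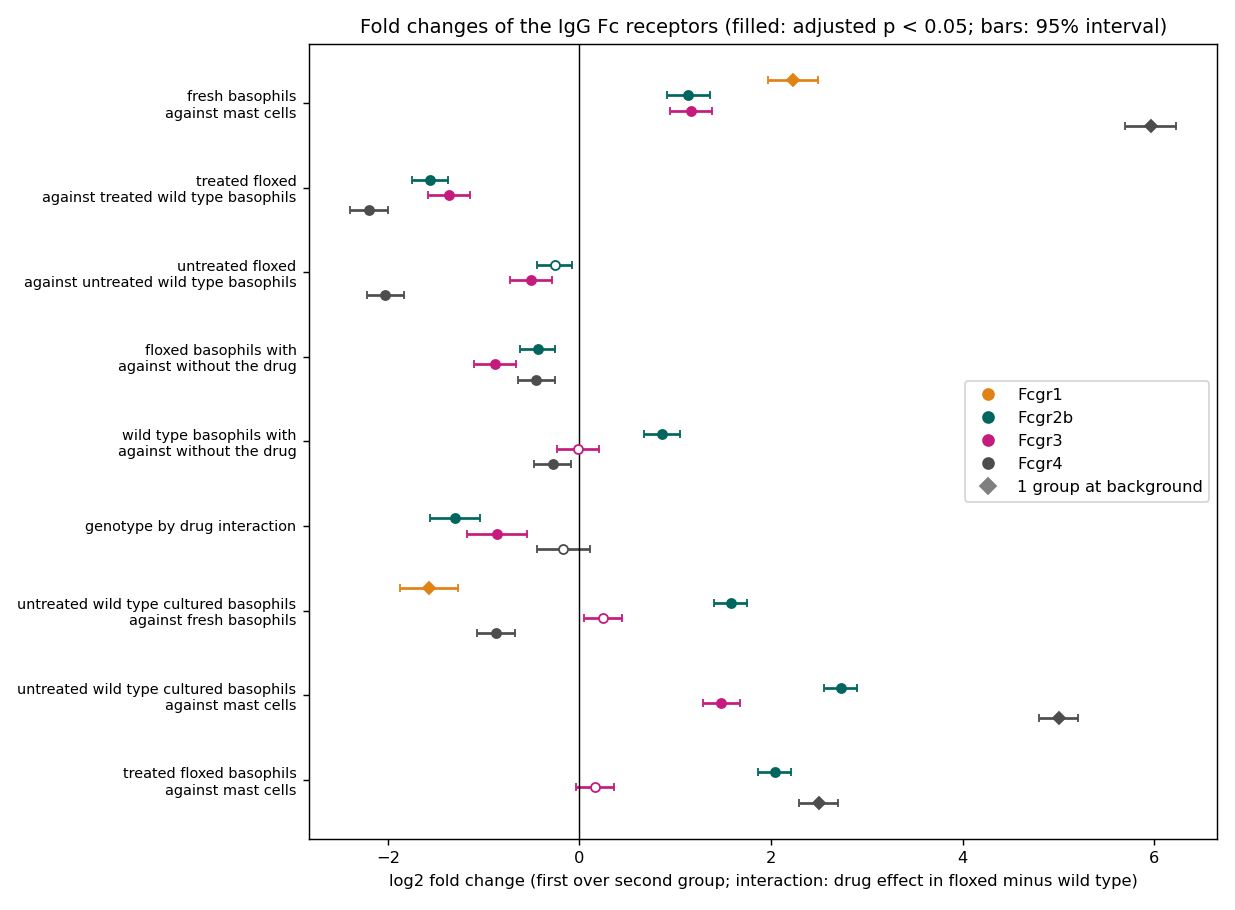
Log2 fold change with its 95% interval of the IgG Fc receptors in 9 comparisons, the first-named group over the second; the interaction row is the drug effect in floxed minus that in wild type cells. Filled symbols passed the test (adjusted p under 0.05), and diamonds mark fitted values where 1 group was at background and the text gives a bound. Fcgr2b, Fcgr3 and Fcgr4 lie left of 0 in treated floxed against treated wild type basophils, at −1.56, −1.36 and −2.19.

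Without the drug, floxed basophils already differed from wild type basophils in activating receptors. Fcgr4 was lower by −2.03 ± 0.090 on the log2 scale (SE, adjusted p = 3.32e-08), 4.07-fold lower, with means of 253 ± 19.7 in untreated floxed and 1096 ± 65.1 in untreated wild type basophils. Fcgr3 was lower by −0.50 ± 0.10 (adjusted p = 0.00463), a call that median scaling of the arrays ended (−0.12, adjusted p = 0.785). Fcgr2b differed by −0.26 ± 0.086 (adjusted p = 0.0645) and did not pass, although its groups did not overlap; its second probe gave −0.35 (adjusted p = 0.0353) and its dimmest probe 0.0042 (adjusted p = 0.988). The count was 2 of 3 members lower, where 11.3% of probes were lower and 13.5% higher, or 24.9% in either direction. Neutrophil markers summed to 19454 to 21389 in untreated floxed and 37655 to 39515 in untreated wild type basophils, with 7 of 14 lower and 3 higher (median log2 fold change −0.38). Monocyte and macrophage markers summed to 12145 to 13527 in untreated floxed and 16117 to 17523 in untreated wild type basophils, with 11 of 13 lower and 1 higher (median −1.34). Mast cell markers had 7 of 12 lower and 0 higher (median −0.42), and the part of these lists was not tested.

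The drug effect was then read within each genotype. In floxed basophils the drug was accompanied by lower Fcgr3, by −0.88 ± 0.10 on the log2 scale (SE, adjusted p = 5.60e-05), lower Fcgr2b, by −0.44 ± 0.086 (adjusted p = 0.00318), and lower Fcgr4, by −0.45 ± 0.090 (adjusted p = 0.00361). The Fcgr2b probes disagreed here, since the second gave 0.0068 (adjusted p = 0.978) and the dimmest −0.62 (adjusted p = 4.34e-04). Fcer1g moved the other way, by 0.30 (adjusted p = 0.0279), and was also higher with the drug in wild type cells, by 0.31 (adjusted p = 0.0228). Its interaction was −0.0095 (adjusted p = 0.976) and did not pass. Of the receptors, 3 of 3 members were lower in floxed cells, where 15.1% of probes were lower and 15.6% higher, or 30.7% in either direction. Mast cell markers moved with the drug in floxed cells, with 9 of 12 higher and 0 lower (median log2 fold change 2.33) and sums of 153834 to 161034 in treated floxed against 92353 to 92906 in untreated floxed basophils. Neutrophil markers had 10 of 14 lower and 1 higher (median −0.60), with sums of 18327 to 21137 in treated floxed against 19454 to 21389 in untreated floxed basophils, and monocyte and macrophage markers had 7 of 13 higher and 3 lower (median 0.41). Their part in the receptor values was not tested.

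In wild type basophils the drug was accompanied by higher Fcgr2b, by 0.86 ± 0.086 (SE, adjusted p = 4.30e-05), 1.82-fold, which its other probes gave as 0.99 and 0.57. Fcgr3 was 29804 ± 539 in treated wild type and 30164 ± 1009 in untreated wild type basophils (SD, n = 3 each), a log2 difference of −0.019 ± 0.10 (adjusted p = 0.934). Fcgr4 was lower by −0.28 ± 0.090 (adjusted p = 0.0445), a call lost when any 1 array of the groups compared was left out (adjusted p 0.0697 to 0.159). The counts were 1 member higher and 1 lower, where 17.8% of probes were higher and 16.3% lower, or 34.1% in either direction. Neutrophil markers summed to 26024 to 27396 in treated wild type and 37655 to 39515 in untreated wild type basophils, with 6 of 14 lower and 4 higher, and monocyte and macrophage markers had 3 of 13 lower and 4 higher; their part in the Fcgr4 value was not tested. No group without RosaYFP/creER was cultured with the drug, so effects of the drug and of an active recombinase cannot be told apart.

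The difference between the drug effects was tested as an interaction. For Fcgr2b the effect in floxed cells was lower than that in wild type cells by −1.30 ± 0.12 on the log2 scale (SE, adjusted p = 3.02e-05), and the other probes gave −0.98 and −1.19. For Fcgr3 the difference was −0.86 ± 0.14 (adjusted p = 0.00198). For Fcgr4 it was −0.17 ± 0.13 (adjusted p = 0.478), which did not pass. The interaction was lower for 2 of 3 members, where 9.33% of probes were lower and 8.71% higher, or 18% in either direction. Mast cell markers had 10 of 12 higher and 0 lower in the interaction (median 2.06) and neutrophil markers 7 of 14 lower and 2 higher (median −0.59), and their part was not tested.

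**Figure D3:**
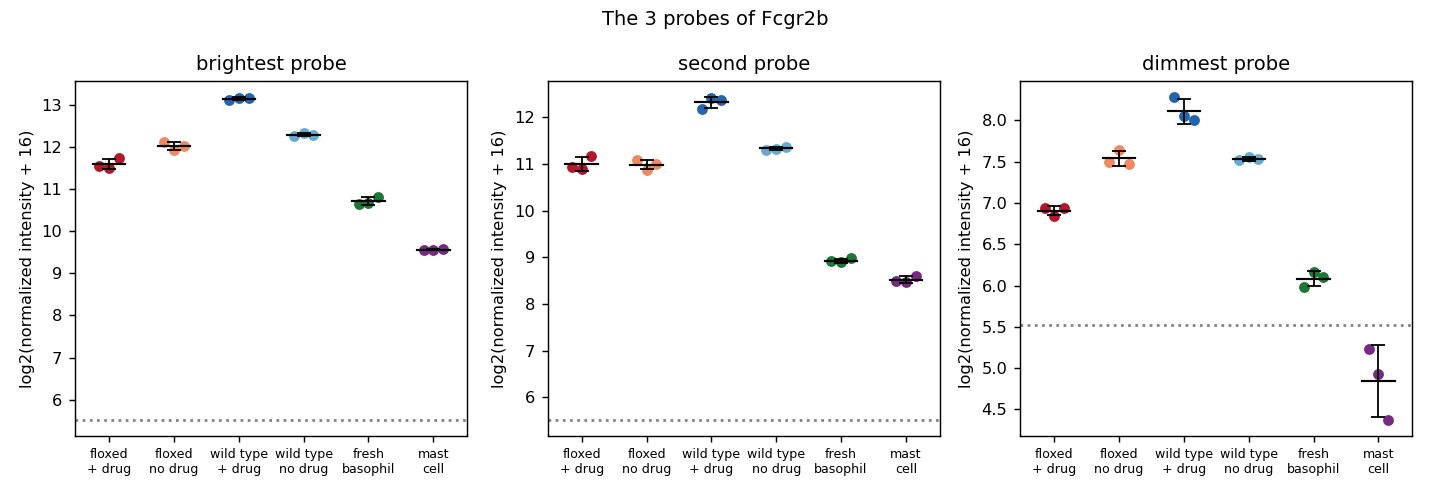
Normalized intensity (log scale) of the 3 Fcgr2b probes by group; points are arrays, black lines means, error bars SD, and the dotted line the background limit of 30. Each probe was highest in treated wild type basophils, with means of 9112, 5085 and 261, and the dimmest of the 3 was at background in mast cells.

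Untreated wild type cultured basophils were then set against fresh basophils. Fcgr2b was higher in culture by 1.58 ± 0.081 on the log2 scale (SE, adjusted p = 7.39e-11), 2.99-fold, and its other probes gave 2.40 and 1.45. Fcgr4 was lower by −0.87 ± 0.094 (adjusted p = 9.43e-07), 1.83-fold, and Fcgr1 was at least 2.52-fold lower (adjusted p = 1.27e-07), being at background in culture. Fcgr3 differed by 0.24 ± 0.093 (adjusted p = 0.0520) and did not pass, although the groups did not overlap. The counts were 1 of 4 members higher and 2 of 4 lower, where 28.0% of probes were higher and 28.4% lower, or 56.4% in either direction. The labels describe a culture and RosaYFP/creER for the first group alone and an injection for the second alone, so these cannot be told apart. Neutrophil markers summed to 37655 to 39515 in the cultured and 115970 to 121558 in the fresh group, with 11 of 14 lower and 2 higher. Monocyte and macrophage markers summed to 16117 to 17523 in the cultured and 35164 to 36905 in the fresh group, with 9 of 14 lower and 4 higher. Eosinophil markers summed to 4616 to 4764 in the cultured and 48489 to 49877 in the fresh group, with 5 of 6 lower and 0 higher. Mast cell markers had 9 of 12 higher and 1 lower, and the part of these lists was not tested.

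Cultured basophils were also set against mast cells. The labels give RosaYFP/creER for these basophils alone, and their culture differed from that of the mast cells, so these and cell type cannot be told apart. In untreated wild type basophils Fcgr2b was higher by 2.73 ± 0.081 and Fcgr3 by 1.48 ± 0.093 on the log2 scale (SE), and Fcgr4 was at least 36.5-fold higher, so that 3 of 3 members above the limit were higher, where 26% of probes were higher and 34.8% lower, or 60.9% in either direction. In treated floxed basophils Fcgr2b was higher than in mast cells by 2.04 ± 0.081 and Fcgr4 at least 5.99-fold, but Fcgr3 differed by 0.16 ± 0.093 (adjusted p = 0.207, 95% interval −0.036 to 0.356). Here 2 of 3 members were higher, where 24.4% of probes were higher and 30.9% lower, or 55.3% in either direction. Cebpa was 65.5 ± 6.60 in treated floxed basophils and 55.5 ± 9.13 in mast cells (SD, n = 3 each). The mast cell markers summed to 153834 to 161034 in treated floxed and 105974 to 106913 in treated wild type basophils, against 202155 to 207130 in mast cells. Neutrophil markers had 13 of 14 higher and 0 lower in untreated wild type, and 9 of 13 higher and 1 lower in treated floxed basophils. Monocyte and macrophage markers had 11 of 13 higher and 1 lower in both. Their sums were 16117 to 17523 in untreated wild type and 13774 to 14046 in treated floxed basophils, against 20634 to 23042 in mast cells. The part of these lists in the receptor values was not tested.

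The other genes of the pathway were read from 5 lists: other receptors for immunoglobulin, activating signalling, inhibitory receptors and phosphatases, phagocytosis and actin remodelling, and the interferon-gamma response with regulators of Fc receptor genes. In treated floxed against treated wild type basophils, where 26.1% of genes above the limit were higher and 23.4% lower and the median log2 fold change was 0.011, the list of the interferon-gamma response and regulators had 2 of 22 genes higher and 17 lower, with a median of −0.94. It includes Cebpa itself, and the medians are of fitted values, genes at background in 1 group included. The named members were Nlrc5, an activator of MHC class I genes (−2.67), Igtp (−1.91) and Gbp3 (−1.89), both interferon-induced GTPases. The list of other receptors had 2 of 9 higher and 5 lower (median −0.34): Fcer1a, the IgE-binding chain, rose by 1.02, and Trim21, a cytosolic antibody receptor, fell by 1.34; Fcrlb and Fcrla passed as lower with the floxed group at background. Activating signalling had 3 of 19 higher and 7 lower (median −0.18), with Gab2 (−1.23), Vav3 (−1.21) and Pik3r5 (−0.62) lower and the adaptor Lat (0.70) higher. Inhibitory receptors and phosphatases had 3 of 15 higher and 3 lower (median −0.050), with Sirpa (−1.19), the receptor for CD47, and Ceacam1 (−0.68) lower and Dok2 (0.69) and Cblb (0.62) higher. Phagocytosis had 4 of 21 higher and 10 lower (median −0.27), with Elmo1 (1.27) and Limk1 (0.68) higher and Marcks (−0.67) and Cdc42 (−0.64) lower. The genotype by drug interaction passed for Cebpa, Trim21, Fcrla, Gab2, Lat, Dok2, Cblb, Elmo1, Limk1 and Cdc42. It did not pass for Nlrc5 (−0.14, adjusted p = 0.850), Igtp (−0.25, adjusted p = 0.162) and Gbp3 (−0.37, adjusted p = 0.0950). Nor did it pass for Fcer1a, Fcrlb, Vav3, Pik3r5, Sirpa, Ceacam1 and Marcks. For those genes a dependence of the gap on the drug was not shown.

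**Figure D4:**
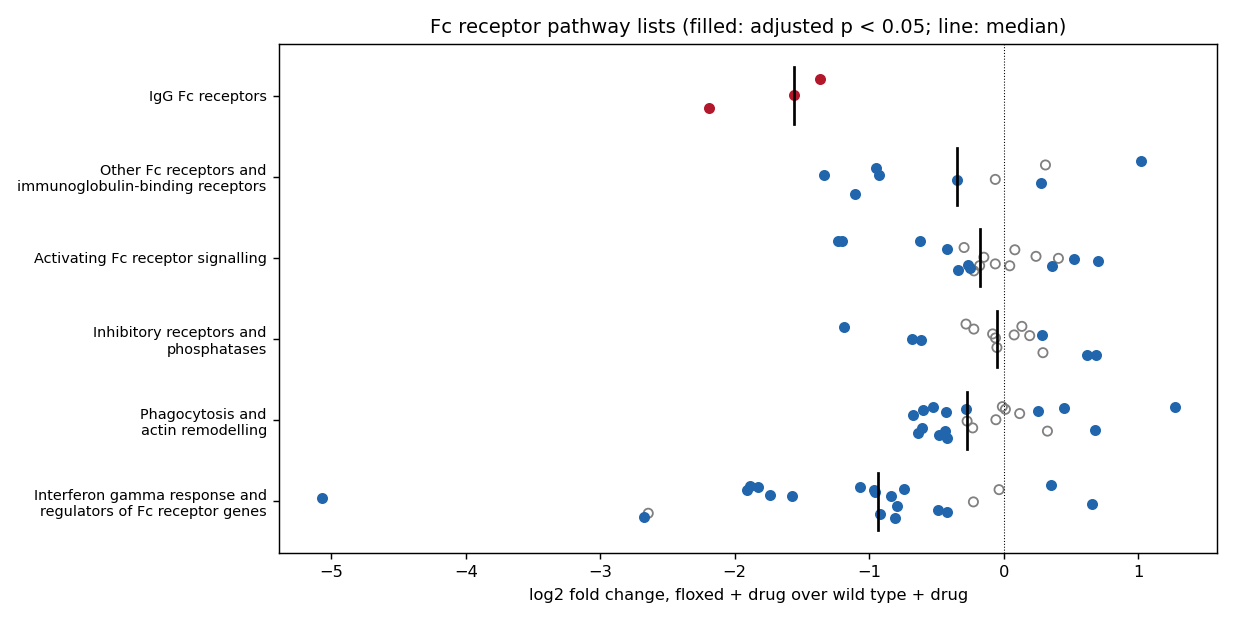
Log2 fold change (treated floxed over treated wild type basophils) of each gene above the limit, filled where the adjusted p was under 0.05, with lines at the medians. The IgG Fc receptors are the top row (red), with a median of −1.56, and the 5 lists follow. Among the 5 lists the interferon-gamma list lies furthest left, with a median of −0.94.

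In fresh basophils against mast cells, where 26.5% of genes were higher and 32.1% lower and the median was −0.081, the interferon-gamma list had 13 of 23 higher and 4 lower (median 0.97). Cebpb, a C/EBP factor, was higher by 3.40 (10.6-fold), and the chemokine genes Cxcl9 and Cxcl10 were at least 18.1-fold and 12.03-fold higher. Other receptors had 3 of 8 higher and 2 lower: Fcgrt, the receptor that protects IgG from breakdown, was higher by 2.54 (5.82-fold), Fcrl1 and Fcrl5 were at least 6.89-fold and 1.68-fold higher, and Fcer2a was lower by −0.53. Activating signalling had 5 of 19 higher and 5 lower: Fgr and Fyn, genes of Src-family kinases, were higher by at least 28.3-fold and by 3.35 on the log2 scale, Pik3r5 was at least 6.88-fold higher, and Src was lower by −3.11 (8.63-fold). Inhibitory receptors and phosphatases had 7 of 16 higher and 4 lower, with Ceacam1 (3.63), Dok2 (1.71) and Cbl (1.65) higher and Inppl1 (−1.68) lower. Phagocytosis had 6 of 22 higher and 2 lower: Marcks, an actin-binding substrate of protein kinase C, and Marcksl1 were at least 90.6-fold and 17.03-fold higher, Actr3 was higher by 1.40, and Amph was at least 1.22-fold lower.

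Without the drug, floxed against wild type basophils, the interferon-gamma list had 0 of 22 genes higher and 12 lower (median −0.38), where 14.2% of genes were higher and 11.8% lower. Higher and lower counts in that comparison were 2 and 1 of 7 for other receptors, 0 and 4 of 19 for activating signalling, 1 and 1 of 15 for inhibitory receptors, and 2 and 2 of 21 for phagocytosis. With the drug in wild type basophils it had 10 of 22 higher and 4 lower (median 0.33, against 17.9% and 17% of genes), and the other lists, in the order above, 3 and 0 of 9, 3 and 5 of 19, 4 and 1 of 15, and 6 and 3 of 21. With the drug in floxed basophils it had 3 of 22 higher and 5 lower (median −0.07, against 15.9% and 15.5%), and the other lists 2 and 3 of 7, 2 and 4 of 19, 3 and 2 of 15, and 4 and 3 of 21. Inpp5d, the phosphatase gene downstream of Fcgr2b, was higher with the drug by 0.88 (adjusted p = 8.55e-05) in floxed and by 0.48 in wild type basophils. Its interaction was 0.40 (adjusted p = 0.113) and did not pass.

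Fcgr2b, Fcgr4 and Fcgr3 lie together on chromosome 1, and Fcgr1 lies on chromosome 3. Among 21 genes around the chromosome 1 receptors, 17 had a probe, 15 were above the limit and 8 passed in treated floxed against treated wild type basophils, the 3 receptors among them. Of all probes above the limit, 48.3% passed in this comparison. Dusp12, a phosphatase gene on one side, was higher by 1.16, and further out on the other side B4galt3 (−0.33) and Usp21 (−0.45) were lower, while Cfap126 (0.16, adjusted p = 0.209) and Sdhc (0.23, adjusted p = 0.225), right beside the receptors there, did not pass. Fcrlb and Fcrla fell in the fit, but both lay at background in the floxed group, with wild type means of 35.5 and 27.4. Around Fcgr1, 2 of the 5 genes above the limit among 11 passed, against the same 48.3% of all probes: Polr3gl was higher by 0.80 and H2bc18 lower by −0.67.

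**Figure D5:**
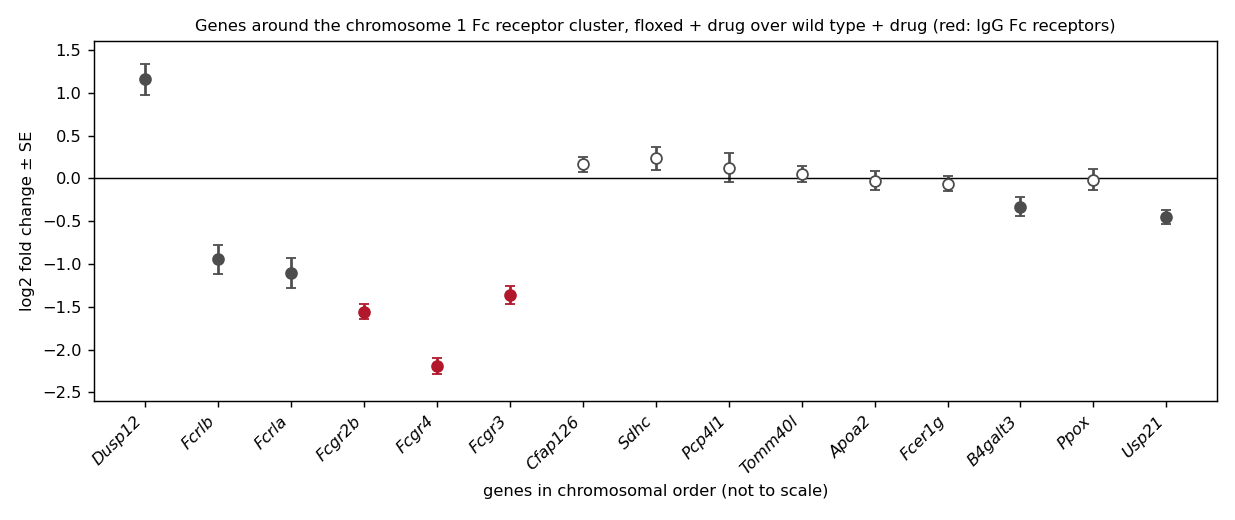
Log2 fold change ± SE (treated floxed over treated wild type basophils) of genes above the limit around the chromosome 1 receptor cluster, in chromosomal order and not to scale; red marks the IgG Fc receptors and filled points passed the test. The 3 receptors were lower, at −1.56, −2.19 and −1.36, while Dusp12 was higher and Fcer1g did not pass.

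As a description over the 18 arrays, which share 6 groups and one normalization, the levels of the receptors were set against each other and against 12208 other genes by Pearson's r on log2 values. Fcgr3 and Fcgr4 had r = 0.876, Fcgr2b and Fcgr3 0.680, and Fcgr2b and Fcgr4 0.569. Cebpa had r = 0.981 with Fcgr3, 0.883 with Fcgr4 and 0.619 with Fcgr2b, and Fcer1g had 0.876 with Fcgr2b, 0.347 with Fcgr3 and 0.363 with Fcgr4. The 5 genes most like Fcgr3 were Mocos (0.990), Cebpa, Ckap4 (0.980), Igsf6 (0.980) and Tmcc3 (0.979). For Fcgr4 they were Timp2 (0.992), Ms4a6c (0.989), S100a9 (0.986), Sash1 (0.983) and Mpeg1 (0.983), and for Fcgr2b Adipor1 (0.990), Sgpl1 (0.990), Fut4 (0.990), Idh1 (0.987) and Slc6a4 (0.986). Since Fcgr1 was above background on the 3 fresh basophil arrays alone, its r values describe fresh basophils against the rest and give no order among the other 15 arrays. They were −0.029 with Fcgr2b, 0.565 with Fcgr3 and 0.744 with Fcgr4, and its 5 most alike genes were Slfn4 (0.978), Abcc4 (0.974), Ngp (0.972), Itgb2l (0.972) and Ltf (0.966). S100a9, Ngp and Ltf are genes of neutrophils and their precursors.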

How the data were processed

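Total RNA of 18 samples was hybridized to single-dye arrays (Cy5.5 NHS ester, per the labels' protocols). The authors deposited linear probe intensity values, of which 743 to 1042 per array were below 0; for the scanner software, background subtraction and any earlier normalization the sources used here give nothing. Gene names followed the platform annotation, in which 21876 of 26423 probes had 1 gene symbol, 0 several and 4547 none. Promoter windows came from RefSeq.

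Quantile normalization covered the arrays entering a fit (6 for fresh basophils against mast cells, 12 for the cultured groups, 18 where cultured groups met fresh basophils or mast cells) and was followed by log2(intensity + 16), so folds are on that scale and understate changes of dim genes. Printed intensities were normalized over 18 arrays. In R 4.3.3, limma 3.58.1 (two-sided moderated tests from lmFit and eBayes) gave adjusted p-values (Benjamini-Hochberg over 26423 probes, threshold 0.05). A member passed if it was also above an intensity of 30 in a group compared. With 1 group at background, the fold is at least the ratio of the geometric mean intensities, with the dim group's arrays raised to that limit. The scripts were tested on simulated data.

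The members, the 13 gene lists (198 genes, 180 with a probe), the limit and the tests were chosen with earlier results of these data known. The naming rule took the members, Cebpa and Fcer1g, up to 4 genes per pathway list and comparison by size of change among those that passed, and the 5 genes per member with the highest Pearson's r. List genes are named for treated floxed against treated wild type and fresh basophils against mast cells, with counts elsewhere except for Inpp5d, which was chosen after its values were seen. Neighbouring genes and markers were named outside the rule. Same-numbered replicates did not pair: of 45 pairs of arrays, 9 had deviations correlated above 0.1 (−0.384 to 0.158). Alternatives were 3 scalings, a filter on dim probes, an offset of 50, an intensity trend, other arrays in the fit, a replicate block, averaged probes and each array left out.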

Additional observations from a re-analysis of the deposited data

Results flagged for a closer look

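The drug effect of Fcgr2b differed between the genotypes by a test of the difference itself: the effect in floxed minus that in wild type basophils was −1.30 on the log2 scale (limma, adjusted p = 3.02e-05), with means of 3105 in treated floxed and 4192 in untreated floxed basophils, and of 9112 in treated wild type and 5015 in untreated wild type basophils. Fcgr3 differed in the same way by −0.86 (adjusted p = 0.00198), with means of 12076 in treated floxed and 21929 in untreated floxed basophils, and of 29804 in treated wild type and 30164 in untreated wild type basophils.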

How the results depend on the processing

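The count of members past the test stayed the same in each comparison under each alternative run, with these exceptions. For floxed against wild type basophils without the drug it was 1 in place of 2 with median scaling. For the drug in wild type basophils it was 1 in place of 2 with median scaling, with only the groups compared, with the replicate block and without any 1 array (1 to 1), and Fcgr4 was the gene lost each time (adjusted p 0.452, 0.0559, 0.0792 and 0.0697 to 0.159). It was 3 in place of 2 for floxed against wild type basophils without the drug in 5 alternatives (no normalization, the filter on dim probes, the offset of 50, the intensity trend, all 18 arrays), where Fcgr2b passed too. It was 4 in place of 3 for untreated wild type cultured against fresh basophils in 5 alternatives (scaling on probes above background, the filter, the offset, the trend, averaged probes), where Fcgr3 passed too. The replicate block changed no other member count. Probes past the test numbered 3166 in place of 4925 for the drug in floxed cells, 3053 in place of 5396 for the drug in wild type cells and 1494 in place of 2976 for the interaction with median scaling.

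Reversed values were those of differences that did not pass: Fcgr3 for the drug in wild type cells (0.12 with median scaling, −0.043 to 0.0087 without any 1 array, above 0 without untreated wild type replicate 3), Fcgr3 in treated floxed basophils against mast cells (−0.052 with median scaling) and Fcgr4 for the interaction (0.15 with no normalization). The cause was not tested.

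Scaling moved the share of calls that were higher. With median scaling it was 73.1% in place of 54.0% for untreated floxed against untreated wild type, 36.0% in place of 50.6% for the drug in floxed cells, 67.9% in place of 52.5% for the drug in wild type cells, 27.8% in place of 48.5% for the interaction and 37.3% in place of 49.6% for cultured against fresh. With no normalization it was 78.2% in place of 45.2% for fresh basophils against mast cells, 62.0% in place of 51.4% for treated floxed against treated wild type, 33.6% for the untreated pair, 22.5% for the drug in wild type, 79.0% for the interaction, 35.6% for cultured against fresh, 66.8% in place of 43.1% for untreated wild type and 65.4% in place of 44.5% for treated floxed basophils against mast cells. The median of all probes shifted by over 0.1 in fresh basophils against mast cells (0.20), untreated wild type against mast cells (0.15) and the interaction (0.12) with no normalization, and in the interaction with median scaling (−0.12).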

Other observations

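Genes that signal with the IgG Fc receptors were also read in culture. In untreated wild type cultured against fresh basophils, activating signalling had 9 of 19 genes higher and 2 lower (median log2 fold change 0.21), inhibitory receptors and phosphatases 9 of 16 higher and 4 lower (0.30), and other immunoglobulin receptors 2 of 8 higher and 6 lower (−0.37), where 28.7% of genes were higher and 29.2% lower with a median of 0.014. Against mast cells, the interferon-gamma list had 19 of 22 higher and 1 lower (1.26) in untreated wild type basophils and 13 of 22 higher and 3 lower (0.35) in treated floxed basophils, where 26.7% and 25.2% of genes were higher.

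Eosinophil markers, of which 6 of 9 had a probe, summed to 10845 to 11162 in treated floxed against 3712 to 3933 in treated wild type basophils, with 3 of 6 higher and 3 lower (median log2 fold change −0.06). They summed to 48489 to 49877 in fresh basophils against 614 to 718 in mast cells, with 5 of 6 higher and 1 lower (median 5.40). The part of eosinophils in the receptor values was not tested in either comparison.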
